A study of Rattus norvegicus with 20 samples.

Results

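Rat mammary cancers differ in how much milk protein mRNA they hold. The comparison described here ranked 12 radiation-induced mammary adenocarcinomas by beta-casein (Csn2), the main casein of rat milk, and set the 6 highest (milk-high) against the 6 lowest (milk-low) of 20 samples in all. The members were chosen by this measured value. The score was the log2 of the scanner's processed signal of the 1 Csn2 probe, floored at 1, minus the 75th percentile of the array's own log2 signals. Csn2 chose the sets, so its values are given as a description and Csn2 was not tested between the sets. The sets come from a measured value and are no groups of the study: a difference in another gene says only that this gene varied with Csn2 among these cancers.

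The rats were female Sprague-Dawley (Jcl:SD). A feed with 45 kcal% fat was given to 2 of the groups, obesity-prone (OP) and obesity-resistant (OR), told apart by how much the rats weighed at 7 weeks. The lean control (LC) group had a standard feed with 10 kcal% fat. All groups received whole-body gamma rays of a caesium source, 4 Gy at 0.5 Gy per minute, at 7 weeks of age and stayed on their diet while palpable cancers were sought for 30 weeks, so no unirradiated cancer stands beside these. The arrays held 6 OP, 3 OR and 3 LC cancers and 8 normal mammary tissues (3 OP, 2 OR and 3 LC) of age-matched rats. Cancers with even histology, free of necrosis and of marked cell infiltration, had been picked for the arrays. Whether each sample was from an animal of its own is not given in the labels, and the p-values here rest on the spread among these arrays.

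Milk proteins are made by the alveolar cells of the luminal epithelium in late pregnancy and lactation. Prolactin binds its receptor (Prlr), the kinase Jak2 attached to it phosphorylates Stat5a and Stat5b, and the Stat5 dimer enters the nucleus and binds sites of the form TTCNNNGAA in milk protein genes, together with glucocorticoid receptor and the transcription factor Elf5. Caseins carry amino acids, calcium and phosphate, alpha-lactalbumin lets the Golgi make lactose, and the fat of milk leaves the cell as globules wrapped in membrane.

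The promoters of 5 milk protein genes show the Stat5-type site beside promoters that lack it. Each run is the 250 bases before the gene's start in the RefSeq annotation of GRCr8, read 5′ to 3′ on the gene's strand. Capitals mark TTCNNNGAA, which reads the same on both strands. The first 3 runs hold it and are of the gene that ranked the cancers and of 2 genes that were high in the milk-high set. The other 2 are of milk genes with no match in this window, and their means were also higher in the milk-high set (Wap by 4.92, Csn3 by 2.36). Csn2 is at chr14:20601574-20601823 on the plus strand. Csn1s1 is at chr14:20638850-20639099, Csn3 at chr14:20439831-20440080 and Wap at chr14:85719160-85719409, all on the minus strand. Glycam1 is at chr7:136561300-136561549 on the minus strand.
Csn2: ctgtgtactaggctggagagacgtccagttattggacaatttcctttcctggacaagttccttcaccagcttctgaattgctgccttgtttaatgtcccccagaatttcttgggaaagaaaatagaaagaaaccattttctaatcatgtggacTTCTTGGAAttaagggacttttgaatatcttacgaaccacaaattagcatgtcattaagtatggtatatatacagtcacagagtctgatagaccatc
Csn1s1: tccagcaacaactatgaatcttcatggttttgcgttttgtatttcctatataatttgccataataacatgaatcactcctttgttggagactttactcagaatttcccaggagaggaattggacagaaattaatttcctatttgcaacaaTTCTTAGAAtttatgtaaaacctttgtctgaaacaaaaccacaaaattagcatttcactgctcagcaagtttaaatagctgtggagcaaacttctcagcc
Glycam1: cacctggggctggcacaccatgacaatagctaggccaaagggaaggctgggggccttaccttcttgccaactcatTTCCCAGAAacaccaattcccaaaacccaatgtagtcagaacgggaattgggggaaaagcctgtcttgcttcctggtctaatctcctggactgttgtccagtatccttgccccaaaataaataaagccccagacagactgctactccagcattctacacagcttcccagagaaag
Wap: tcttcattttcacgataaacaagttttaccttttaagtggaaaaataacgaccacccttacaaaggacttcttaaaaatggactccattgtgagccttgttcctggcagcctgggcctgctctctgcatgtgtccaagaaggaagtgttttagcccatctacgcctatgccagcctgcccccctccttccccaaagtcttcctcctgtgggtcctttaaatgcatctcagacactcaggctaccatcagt
Csn3: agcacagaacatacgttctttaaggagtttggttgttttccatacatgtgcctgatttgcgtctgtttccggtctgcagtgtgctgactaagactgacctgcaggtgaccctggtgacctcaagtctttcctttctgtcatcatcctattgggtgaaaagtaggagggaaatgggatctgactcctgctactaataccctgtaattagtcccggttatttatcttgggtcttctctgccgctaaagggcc

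The match lay at bases -97 to -89 from the start in Csn2, at -100 to -92 in Csn1s1 and at -175 to -167 in Glycam1. Csn1s2b also held it at -100 to -92. Of 9 casein and whey genes with Csn2 included, 5 held the site in the 300 bases from 250 before to 50 after the start (55.6%), against 8.06% of 7038 tested genes with a promoter in the table and 8.87% of all 33469 promoters. Lalba, Wap, Csn3 and Wfdc18 had no match in this window. The site stood in genes with large differences between the sets (Csn1s1, Glycam1), and Wap had a large difference without it. It also stood in Csn1s2b and Pip, whose differences were small. The probes of Csn1s2b and Pip were well above background on few arrays of either set. Their small differences therefore cannot show whether these genes varied with Csn2.

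The Csn2 score of the milk-high cancers was 5.72 at the lowest, 7.52 at the median and 8.16 at the highest (mean 7.29, SD 0.93, n = 6), and that of the milk-low cancers -1.35, -1.01 and 4.61 (mean 0.08, SD 2.31, n = 6). The order was LC 1 (8.16), OR 1 (8.10), OP 4 (7.57), OP 3 (7.47), OP 2 (6.70) and LC 3 (5.72), and then OP 5 (4.61), OP 6 (0.46), OP 1 (-0.90), LC 2 (-1.12), OR 3 (-1.22) and OR 2 (-1.35). The limit thus fell between LC 3 and OP 5, while the widest gap was the next one, between OP 5 and OP 6. OP 5 was placed among the milk-low cancers by the ranking and carried Csn2 nearer to the milk-high ones, so results are also given without it. The 8 normal tissues spread over nearly the same range, from -0.72 to 7.42 with a median of 1.94. The Csn2 probe was well above background on all 20 arrays.

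**Figure D1:**
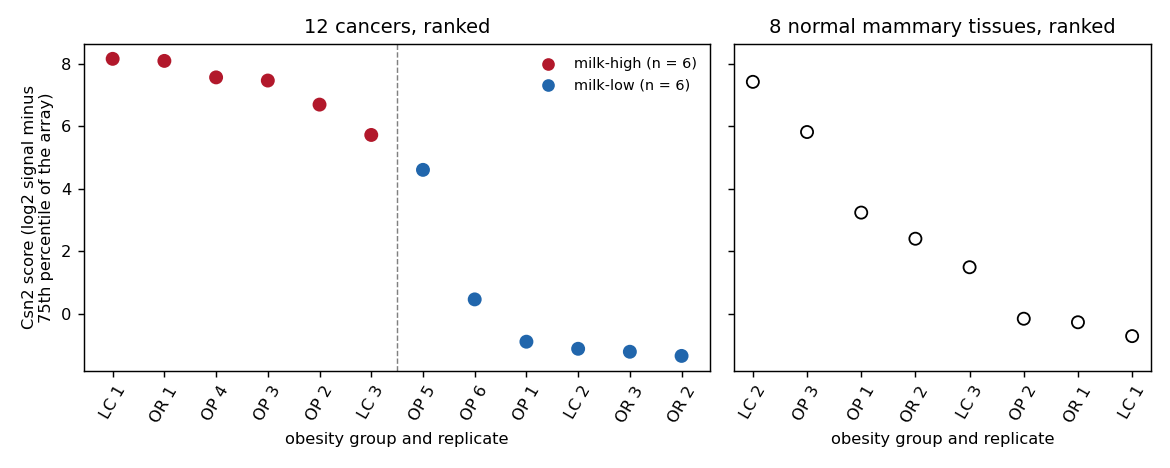
Csn2 score (log2 signal minus the array's 75th percentile, y axis) of the 12 cancers in ranked order (left; red milk-high, blue milk-low, dashed line the limit between the sets) and of the 8 normal tissues (right), 1 point per array. The 6 milk-high cancers lie between 5.72 and 8.16, OP 5 lies at 4.61, and the remaining 5 milk-low cancers lie between -1.35 and 0.46.

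Cancers of all 3 obesity groups lay in both sets. The milk-high set held 3 OP, 1 OR and 2 LC cancers and the milk-low set 3 OP, 2 OR and 1 LC (two-sided Fisher's exact test of OP against the others, p = 1). The score was 4.32 ± 3.70 (SD, n = 6) in OP, 1.84 ± 5.42 (n = 3) in OR and 4.25 ± 4.81 (n = 3) in LC cancers. The 3 differences between these groups had adjusted p-values of 0.75 (OP minus OR), 0.976 (OP minus LC) and 0.75 (OR minus LC) in two-sided exact permutation tests. Probes well above background made up 68.5% ± 7.53 of each milk-high array and 68.5% ± 6.25 of each milk-low array (SD, n = 6 each; two-sided exact permutation test, p = 0.994). The scan days were uneven: 3 milk-high and 5 milk-low cancers were read on the first and 3 and 1 on the second.

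With 6 cancers on each side, limma called none of 36042 genes at an adjusted p of 0.05 (0 called, 0%), and the smallest adjusted p was 0.0946. At an unadjusted p under 0.05 there were 893 genes higher (2.48%) and 674 lower (1.87%) in milk-high cancers. By chance a share of 0.05 is expected there, both directions together. Of all genes, 49.1% had a higher mean in milk-high cancers, and the counts of higher and lower means in lists stand beside that share. All 6 milk-high cancers lay above all 6 milk-low ones in 42 genes (0.117%) and below them in 27 (0.0749%). The 12 cancers can be split into 6 and 6 in 924 ways, so about 1 gene in 924 is expected above by chance, and as many below. A gene without overlap is therefore not unusual by that trait alone. The fit that used the Csn2 score itself as a number over the same 12 cancers, in place of the 2 sets, called 16 genes, all rising with Csn2 (0.0444%). This fit was one of the alternatives and was made a result of its own after the values were seen. It called 0 genes that fell as Csn2 rose, and at an unadjusted p under 0.05 it had 2678 genes, of which 1467 rose. Without OP 5 the comparison of the sets called 8 genes, all higher in milk-high cancers, and all 8 were among the 16. Without LC 3 it called 3, without OP 2 it called 2 (1 higher, 1 lower), and without each of the other 9 cancers in turn 0. Levels below are log2 intensities after background correction with an offset of 50 and quantile normalization, differences are milk-high minus milk-low on that log2 scale, and a slope is the log2 change of a gene per log2 unit of Csn2. The offset draws the values of dim probes together. Some differences were over 1.5 times as large on the scale of the score, the processed signal against the array's 75th percentile. The main ones are given on this percentile scale too. For dim probes neither scale settles the size of a difference.

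Of the 16, 8 had a gene symbol: Glycam1, Wap, Fabp3, Aqp2, Acsl1, Thrsp, St6galnac3 and Pdzk1ip1. The other 8 were probes that the gene table used here did not name, so some of the 16 may stand for the same gene. One of these, probe A_43_P16222, had a slope of 0.99 (SE 0.04; limma, adjusted p = 5.28e-07) and a correlation of 0.989 with Csn2 over the 12 cancers. Its target, which could be Csn2 itself or another milk gene, was not analysed here. Leaving out each cancer in turn gave 10 to 30 calls, with OR 3 left out giving the fewest and LC 2 left out the most, and of the 16 genes 10 to 16 were called again. Glycam1, Wap, Fabp3, Aqp2 and Acsl1 were called each time. With the slide as a block, in a fit where 2 slides hold 1 cancer each, 1 gene was called and none of the 8 with a symbol. Over 21 alternatives the slope of Glycam1 lay between 0.93 and 1.13, with an adjusted p of at most 0.190.

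Glycam1, a mucin-like glycoprotein secreted into milk, had the largest difference among the genes named here. Its log2 level was 15.10, 16.54 and 17.95 (lowest, median, highest) in milk-high and 6.99, 7.91 and 15.20 in milk-low cancers. The sets overlapped only because OP 5 stood at 15.20 and OP 3 at 15.10. The difference was 7.30 (SE 1.20, 158-fold; limma, adjusted p = 0.178), and without OP 5 it was 8.50 (adjusted p = 0.000198). Glycam1 rose with the Csn2 score by 1.02 per unit (SE 0.09; adjusted p = 0.000535).

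Wap, whey acidic protein, the main whey protein of rodent milk, was 11.48, 13.29 and 15.09 in milk-high and 7.03, 7.51 and 12.46 in milk-low cancers. The milk-low value of 12.46 was OP 5 and the next was 8.95. The difference was 4.92 (SE 0.96, 30.2-fold; limma, adjusted p = 0.505), or 5.72 without OP 5 (adjusted p = 0.0206). Its slope on Csn2 was 0.69 (SE 0.08; adjusted p = 0.00911).

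The other caseins followed Csn2 less tightly. Csn1s1, alpha-S1-casein, was 16.69, 17.43 and 17.66 in milk-high and 10.28, 14.32 and 16.99 in milk-low cancers, a difference of 3.33 (SE 0.85; limma, adjusted p = 0.965). Its slope was 0.49 with an adjusted p of 0.0956, past the threshold in 5 of 21 alternatives. Lalba, alpha-lactalbumin, the partner of the galactosyltransferase that makes lactose, differed by 2.89 (SE 1.01), and Csn3, kappa-casein, which coats the casein micelle, by 2.36 (SE 1.02). Within LC cancers Csn3 was -0.44, since LC 3, a milk-high cancer, stood at 13.77 and LC 2, a milk-low one, at 15.82. Neither Lalba nor Csn3 passed the test in either fit.

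The means of 3 milk protein genes lay near 0 or the other way. Csn1s2b, another calcium-sensitive casein, was 6.55 to 7.17 in milk-high and 6.50 to 6.77 in milk-low cancers and was well above background on 2 and 1 of 6 arrays. Pip, prolactin-inducible protein, was well above background on 1 of 6 arrays of each set. Wfdc18, a secreted protease-inhibitor-like protein, was 7.81, 8.60 and 10.30 in milk-high and 7.06, 10.00 and 12.59 in milk-low cancers, a difference of -1.22 (SE 0.90; limma, adjusted p = 0.965). Of the 8 casein and whey genes tested, 7 had a higher mean in milk-high cancers. At an unadjusted p under 0.05 there were 5, all higher, beside 2.48% of all genes. The difference of Pip turned from 0.03 to -0.23 on the percentile scale. The median difference of the 8 was 2.63, beside -0.0024 over all 36042 genes. Csn1s2a, Ltf, Lpo and Fcgbp were not analysed here.

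**Figure D2:**
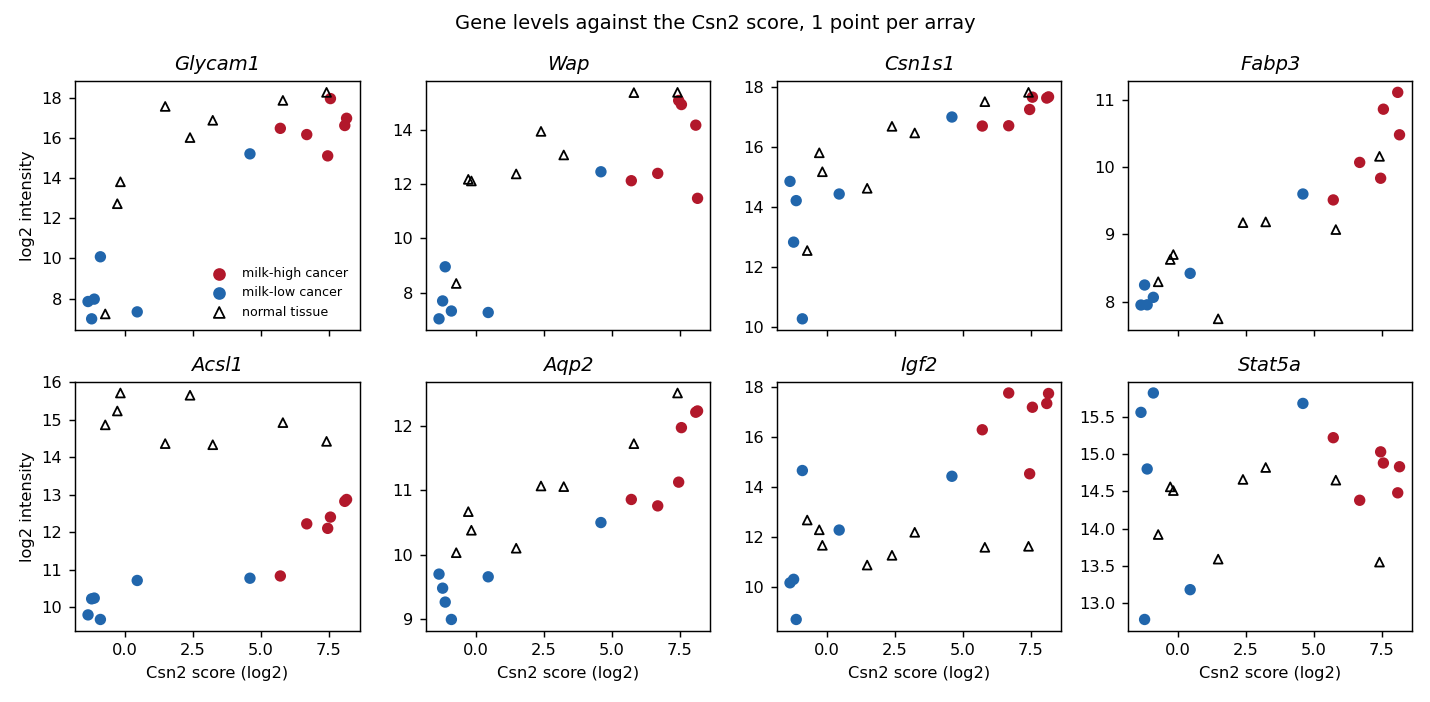
Log2 intensity of 8 genes (y axes) against the Csn2 score (x axes), 1 point per array: red milk-high cancers, blue milk-low cancers, open triangles normal tissue. Glycam1, Wap, Fabp3, Acsl1 and Aqp2 rose with Csn2 in cancers (slopes 1.02, 0.69, 0.27, 0.27 and 0.27), Csn1s1 and Igf2 had slopes of 0.49 and 0.68 that missed the threshold, and Stat5a had a slope of 0.04.

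Most genes of milk fat had higher means in the milk-high cancers, with smaller differences. Fabp3, a fatty acid binding protein of the lactating gland, was 9.51, 10.28 and 11.11 in milk-high and 7.95, 8.16 and 9.60 in milk-low cancers. Again the milk-low cancer at 9.60 was OP 5, and the next was 8.42. The difference was 1.94 (SE 0.33, 3.83-fold; limma, adjusted p = 0.178; 0.0206 without OP 5), and the slope of 0.27 (SE 0.02) passed with an adjusted p of 0.000255.

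Abcg2, the transporter that moves riboflavin and drugs into milk, differed by 0.90 (SE 0.20) and its slope of 0.13 had an adjusted p of 0.0904. Mfge8 (lactadherin, a protein of the globule membrane) differed by 1.57, Xdh (xanthine oxidoreductase, which binds the membrane to the droplet) by 1.11, Muc15 by 0.97, the milk lipase Cel by 0.68 and lipoprotein lipase Lpl by 0.47. None of these passed the test. On the percentile scale Abcg2 differed by 2.22, Muc15 by 2.44 and Cel by 1.24. Of 15 genes of the milk fat globule and triglyceride synthesis, 13 had a higher mean in milk-high cancers. At an unadjusted p under 0.05 there were 7, all higher, beside 2.48% of all genes. The median of the 15 was 0.37 (0.65 on the percentile scale). The general triglyceride enzymes were near 0: Dgat1 at 0.06, Dgat2 at -0.08, Gpam at -0.08 and Agpat1 at 0.08. Btn1a1, Plin2 and Muc1 were not analysed here.

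Genes of fatty acid synthesis also had mostly higher means. Acsl1, which activates long-chain fatty acids, was 10.84, 12.32 and 12.88 in milk-high and 9.68, 10.24 and 10.78 in milk-low cancers, without overlap. Its difference was 1.97 (SE 0.32; limma, adjusted p = 0.178) and its slope 0.27 (SE 0.03; adjusted p = 0.00911). Thrsp, a regulator of lipogenesis, was 10.49, 10.92 and 11.57 against 7.75, 8.97 and 11.08, where 11.08 was OP 5. It rose with Csn2 by 0.28 per unit (SE 0.03; adjusted p = 0.0109).

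Olah, the thioesterase that releases the medium-chain fatty acids typical of milk, was 13.52, 14.65 and 15.15 in milk-high and 8.80, 12.20 and 14.94 in milk-low cancers, a difference of 2.77 (SE 1.02) that did not pass. Me1, which makes NADPH for lipid synthesis, differed by 0.80 (SE 0.25). Of 21 genes of the list 16 had a higher mean and 6 an unadjusted p under 0.05, all higher, beside 2.48% of all genes. The median of the 21 was 0.14. Acsl1 and Thrsp are also made by fat cells. Over the 18 adipocyte genes 9 had a higher and 9 a lower mean, 3 (Acsl1, Thrsp and Cidec) had an unadjusted p under 0.05, their median was -0.0091, and their mean log2 level was 7.89 to 8.18 in milk-high and 7.61 to 8.11 in milk-low cancers, against 11.73 to 12.55 in normal tissue. In cholesterol synthesis 21 of 23 genes had a lower mean in milk-high cancers and none had an unadjusted p under 0.05 (median -0.14, or -0.23 on the percentile scale).

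The remaining called genes with a symbol are not known as milk components. Aqp2, a water channel best known from the kidney collecting duct, was 10.76, 11.55 and 12.24 in milk-high and 8.99, 9.56 and 10.50 in milk-low cancers, without overlap. It differed by 1.94 (SE 0.32; limma, adjusted p = 0.178) and rose with Csn2 by 0.27 per unit (SE 0.03; adjusted p = 0.00275).

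St6galnac3, a sialyltransferase, was 8.07, 9.01 and 9.21 against 7.16, 7.66 and 7.95, also without overlap, a difference of 1.29 (1.94 on the percentile scale). Its slope was 0.17 (SE 0.02; limma, adjusted p = 0.0234), and it was called in 10 of 21 alternatives. Pdzk1ip1, a small membrane protein that binds PDZ domains, had a slope of 0.17 (SE 0.02; adjusted p = 0.0234) and was called in 11 of 21. OP 5 stood at 10.27 for Pdzk1ip1, among the milk-high cancers (9.24 to 10.57), and the other milk-low cancers reached 9.05.

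Sftpd, surfactant protein D, a secreted lectin of innate defence, had the smallest p of all genes with a symbol when the sets were compared. It was 8.10, 8.73 and 9.46 in milk-high and 6.67, 7.01 and 7.62 in milk-low cancers, a difference of 1.77 (SE 0.24; limma, adjusted p = 0.123), or 3.39 on the percentile scale. Its probe was well above background on 6 of 6 milk-high and 4 of 6 milk-low arrays. The difference passed in 3 of 27 alternatives, with an adjusted p of 0.0061 at the lowest. Its slope of 0.21 had an adjusted p of 0.233 and passed in 0 of 20 alternatives. Arl4a, a small GTPase, differed by 0.73 (SE 0.13) and P2ry14, a receptor for nucleotide sugars, by 1.30 (SE 0.31). Both were without overlap and did not pass, and P2ry14 differed by 2.08 on the percentile scale.

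The 10 genes with a symbol that correlated most with the Csn2 score over the 12 cancers were Fabp3 (r = 0.965), Glycam1 (0.956), Aqp2 (0.940), Acsl1 (0.924), Wap (0.921), Thrsp (0.918), St6galnac3 (0.906), Pdzk1ip1 (0.904), Slc28a3 (0.885) and Kdm4b (0.884). All were measured on the same 12 arrays as Csn2. Slc28a3, a nucleoside transporter, was well above background on 5 of 6 milk-high and 0 of 6 milk-low arrays and was at least 1.30-fold higher in milk-high cancers (limma, adjusted p = 0.965), a bound set by the lowest signal above background. Kdm4b, a histone demethylase, differed by 0.16 between the sets (0.32 on the percentile scale).

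Igf2, the insulin-like growth factor that acts downstream of prolactin in alveolar growth, had the second largest difference among the named genes. Its level was 14.53, 17.27 and 17.76 in milk-high and 8.71, 11.29 and 14.66 in milk-low cancers. OP 3 was the lowest milk-high cancer at 14.53, and OP 1 (14.66) and OP 5 (14.43) the highest milk-low ones. The difference was 5.05 (SE 1.01, 33.2-fold; limma, adjusted p = 0.588), and it was 2.71 within OP, 7.10 within OR and 8.31 within LC cancers. Its slope of 0.68 (SE 0.11) had an adjusted p of 0.0728, and passed in 5 of 21 alternatives. Igfals, which holds insulin-like growth factors in a complex in the blood, was 9.07, 11 and 12.23 against 7.40, 8.04 and 9.82, a difference of 2.66 (SE 0.56; adjusted p = 0.728).

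The receptor and signalling genes upstream of the milk genes had smaller differences. Prlr was 8.80, 9.63 and 10.11 in milk-high and 8.47 at the lowest and 9.81 at the median in milk-low cancers, the highest of which lay above every milk-high one. The difference was -0.24 (95% interval -1.04 to 0.56). Stat5a was 14.38, 14.85 and 15.22 against 12.78, 15.18 and 15.82, a difference of 0.16 (-0.95 to 1.27). The milk-low cancers held both the lowest values of Stat5a (OR 3 at 12.78, OP 6 at 13.18) and the highest (OP 1 at 15.82). For Jak2 the difference was -0.43 (-1.01 to 0.15) and for Stat5b 0.03 (-0.49 to 0.54). The intervals of Prlr, Jak2 and Stat5a reach 1 log2 unit or more to 1 side, and the arrays measured mRNA, not the phosphorylated protein.

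Of 17 genes of prolactin and Stat5 signalling 7 had a higher and 10 a lower mean in milk-high cancers, with Igf2 as the 1 with an unadjusted p under 0.05, and their median was -0.06. Of 12 alveolar and luminal transcription factors 7 were higher and 5 lower in mean, and none had an unadjusted p under 0.05 (median 0.02). Elf5 was not analysed here. For the oestrogen receptor Esr1 the difference was -0.07 (-0.35 to 0.21; -0.32 on the percentile scale) and for the progesterone receptor Pgr -0.06 (-0.86 to 0.74). The sign of both turned under some of the alternatives, as did that of Stat5a and Stat5b. Of 15 genes of hormone-sensing luminal cells 4 had a higher and 11 a lower mean (median -0.12, or -0.32 on the percentile scale). The progesterone target Tnfsf11 (RANK ligand) was well above background on 0 of 6 milk-high and 3 of 6 milk-low arrays and was at least 1.13-fold lower in milk-high cancers (limma, adjusted p = 0.965).

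**Figure D3:**
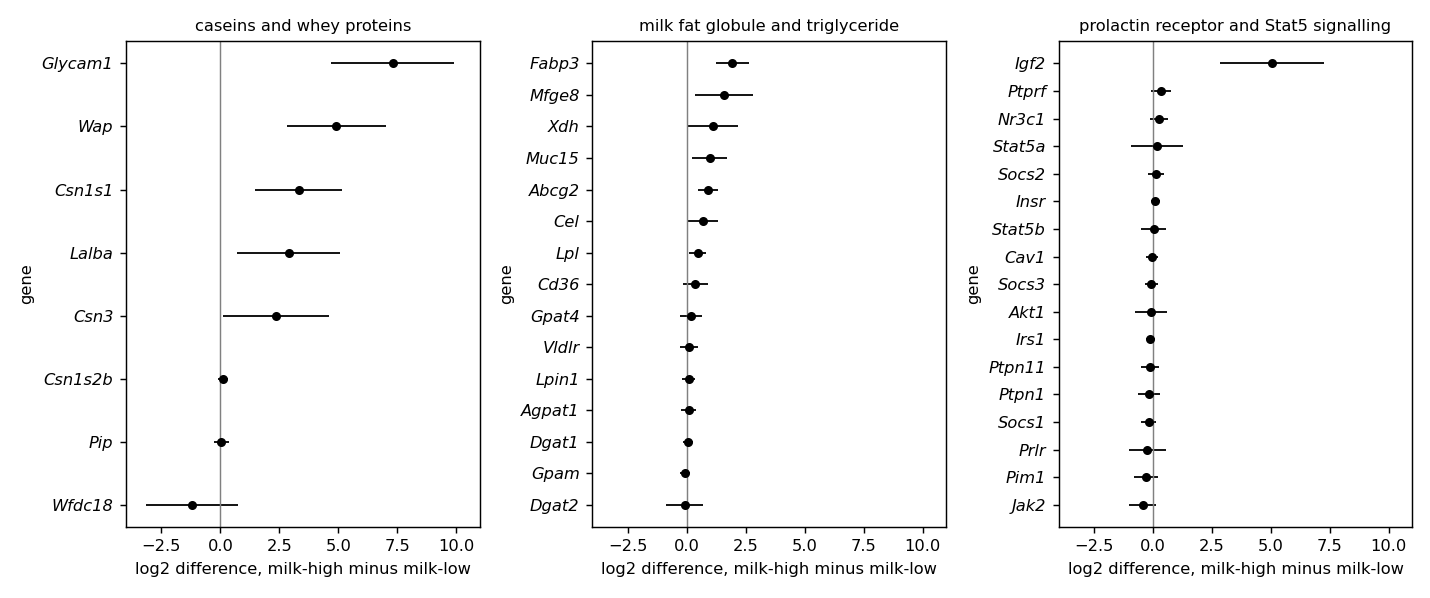
Log2 difference, milk-high minus milk-low cancers (x axes), of every tested gene of 3 lists (y axes), as points with limma's 95% intervals, 6 cancers against 6. In the casein and whey list 5 of 8 intervals lie above 0 (Glycam1 7.30 to Csn3 2.36), and in the prolactin and Stat5 list Igf2 (5.05) stands alone above the other 16.

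Transport and secretion genes were mixed. Of 23 alveolar transporters 13 had a higher and 10 a lower mean (median 0.09, or 0.17 on the percentile scale). At an unadjusted p under 0.05 there were 4 on each side, beside 2.48% (higher) and 1.87% (lower) of all genes. On the percentile scale Slc34a2 differed by 3.33 and Slc30a2 by -1.26. Slc34a2 was well above background on 6 of 6 milk-high and 3 of 6 milk-low arrays. Higher were the phosphate carrier Slc34a2 (1.34, SE 0.32), Slc28a3, the calcium pump Atp2b2, which exports calcium into milk, and the zinc carrier Slc30a4 (0.80, SE 0.23). Atp2b2 was well above background on 4 of 6 milk-high and 0 of 6 milk-low arrays, with no overlap, and was at least 1.31-fold higher (limma, adjusted p = 0.965). Lower, and chosen after their values were seen, were Slc30a2, the zinc carrier whose loss leaves milk poor in zinc (-0.66, SE 0.23), and the glutamine carrier Slc1a5 (-0.95, SE 0.40). Pigr, the receptor that carries immunoglobulin A into milk, was 6.97, 8.19 and 8.45 against 6.48, 6.92 and 7.25, a difference of 1.03 (SE 0.25). All 4 genes of immunoglobulin secretion had a higher mean. Of them 2, Pigr and Tgfb2 (0.45), had an unadjusted p under 0.05, beside 2.48% of all genes. The median of the list was 0.61, or 1.54 on the percentile scale, where Pigr differed by 2.09.

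Among 11 genes of lactose and sugar synthesis 5 had a higher and 6 a lower mean (median -0.03), and Ugp2, which makes UDP-glucose, was the 1 with an unadjusted p under 0.05 (0.32, SE 0.13). The 22 genes of the secretory machinery of the endoplasmic reticulum had a median of 0.01, with 13 higher and 9 lower. The chaperone Hyou1 was the 1 with an unadjusted p under 0.05 (-0.52, SE 0.23). In the hypoxia and glycolysis list 19 of 25 genes had a higher mean, and Aldoc, an aldolase, differed by 1.44 (SE 0.44; limma, adjusted p = 0.965). The difference of Aldoc was 1.69 within OP, 2.11 within OR and -0.25 within LC cancers, where LC 2, a milk-low one, stood at 12.47.

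In the other direction no gene passed either fit. Ydjc, a sugar deacetylase-like protein, had the smallest p among lower genes with a symbol: it was 10.24, 10.65 and 10.80 in milk-high and 11.39, 11.64 and 12.67 in milk-low cancers, without overlap, a difference of -1.31 (SE 0.22; limma, adjusted p = 0.178). The angiotensin receptor Agtr1a was 8.64, 9.19 and 10.41 against 9.23, 12.19 and 13.37 (-2.29, SE 0.63). Plbd1, a phospholipase-like protein, differed by -0.94 (SE 0.26), Atp1b3, a subunit of the sodium pump, by -0.60 (SE 0.15) and Carm1, an arginine methyltransferase, by -0.23 (SE 0.05). Of 19 proliferation genes all 19 had a lower mean in milk-high cancers (median -0.26), and none had an unadjusted p under 0.05. Mki67 was not analysed here.

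Markers of the luminal epithelium had similar ranges of mean level in both sets, and most had a higher mean in the milk-high set. In bulk tissue, fewer cells of a type and less RNA per cell cannot be told apart. The 15 luminal epithelial genes had a mean log2 level of 12.99 to 13.86 in milk-high and 12.88 to 13.85 in milk-low cancers. Of them 14 had a higher mean in the milk-high set (median 0.22). Ocln (0.52, SE 0.16) and Krt19 (0.40, SE 0.14) were the 2 with an unadjusted p under 0.05, both higher, beside 2.48% of all genes. Of 11 basal and myoepithelial genes 8 had a lower mean (median -0.28), with Krt14 at -1.0 (SE 0.48). Their part in the milk gene differences was not tested.

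Most mast cell genes had lower means in the milk-high cancers. Cma1, a chymase of mast cell granules, was 6.41, 9.0 and 13.81 in milk-high and 9.67, 12.21 and 15.26 in milk-low cancers, a difference of -3.20 (SE 1.21; limma, adjusted p = 0.965). Tpsb2, a tryptase, was 7.05, 7.83 and 11.79 against 7.67, 10.89 and 13.50 (-2.54, SE 0.97). LC 3, the milk-high cancer with the least Csn2, held 13.81 for Cma1 and 11.79 for Tpsb2, and OP 5 held 9.67 and 7.67, so both cancers beside the limit went against their sets.

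Mcpt1, a mast cell protease, differed by -1.96 (SE 0.72) and Ms4a2, a chain of the immunoglobulin E receptor, by -1.20 (SE 0.52). The histamine-forming enzyme Hdc, chosen after its values were seen, differed by -1.56 (SE 0.70). Of 10 mast cell genes 9 had a lower mean and 7 had an unadjusted p under 0.05, all lower, beside 1.87% of all genes. Their median was -0.83 and their mean log2 level was 7.14 to 9.23 in milk-high and 7.57 to 10.12 in milk-low cancers. None passed the test, and over all 12 cancers no slope on Csn2 passed either (limma, Mcpt1 -0.33 with adjusted p = 0.251, Tpsb2 -0.43 with adjusted p = 0.363). Without LC 3, Tpsb2 fell by 0.47 per unit of Csn2 (adjusted p = 0.0411), the 1 of 21 alternatives in which it passed. Within slide 5, which held LC 3 and 3 milk-low cancers, the difference was 1.29 for Cma1, 0.49 for Tpsb2 and 0.88 for Hdc. Mcpt1 stayed lower there (-0.73) and Ms4a2 was near 0 (0.07). For Cma1, Tpsb2 and Hdc the difference was -3.00, -1.41 and -1.38 within slide 4. Within slide 1, which held 1 cancer of each set, it was -8.55, -6.34 and -3.68. On the percentile scale the list's median was -2.39, with Mcpt1 at -3.37, Ms4a2 at -3.33 and Hdc at -3.13.

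Other lists of immune cells lay lower as well without single genes at an unadjusted p under 0.05: 11 of 13 macrophage genes (median -0.53), 16 of 20 T and NK cell genes (-0.33), 6 of 7 neutrophil genes (-0.54), 8 of 9 MHC class II genes (-0.36) and 3 of 3 B and plasma cell genes (-0.38). The ranges of their mean levels overlapped between the sets, for macrophages 10.87 to 11.59 against 10.50 to 12.92. On the percentile scale the medians were -1.64 for B and plasma cells, -1.17 for neutrophils, -0.54 for T and NK cells, -0.49 for MHC class II and -0.55 for macrophages. Interferon response genes were mostly higher in mean, 18 of 23 (median 0.20, or 0.32 on the percentile scale).

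Fibroblast and matrix genes (median -0.12), endothelium (0.08), skeletal muscle (-0.13), nerve and Schwann cells (0.02) and erythrocytes (0.19) had 0 genes at an unadjusted p under 0.05. So had luminal progenitor genes (0.27), skin keratinocyte genes (-0.28, 7 of 7 lower) and the EGF receptor family (-0.04). The involution list had 1 such gene, higher (median 0.02), and the immediate early list had 1, higher (-0.03). On the percentile scale the medians were -0.65 for skin, -0.24 for muscle, 0.14 for endothelium and 0.29 for erythrocytes, and that of nerve and Schwann cells turned to -0.06. How any of these lists bears on the milk genes was not tested.

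**Figure D4:**
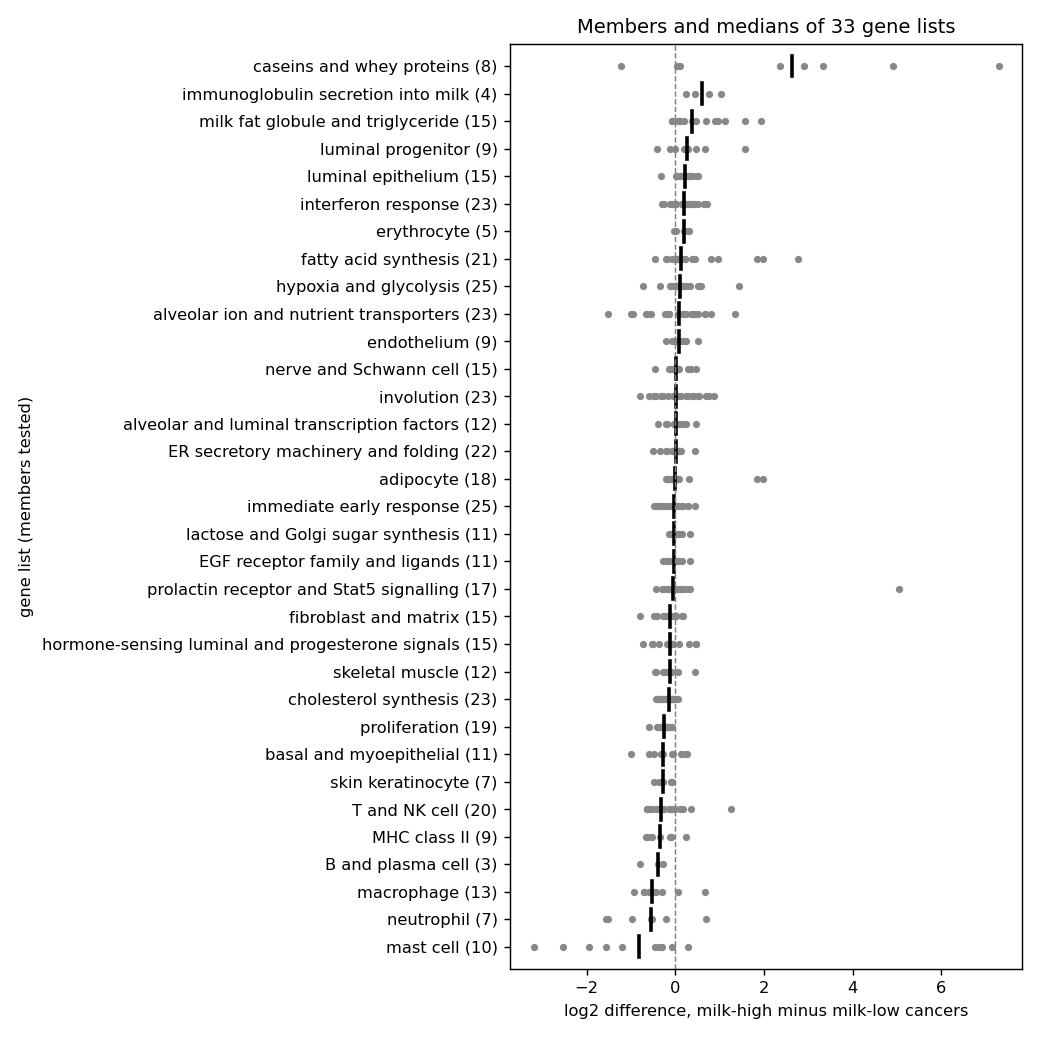
Log2 difference, milk-high minus milk-low cancers (x axis), of each tested member (grey points) and the median (black bar) of 33 gene lists (y axis, with the number of members tested), ordered by median. The dashed line is the median of all genes (-0.0024). Casein and whey genes are at the top (2.63) and mast cell genes at the bottom (-0.83).

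**Figure D5:**
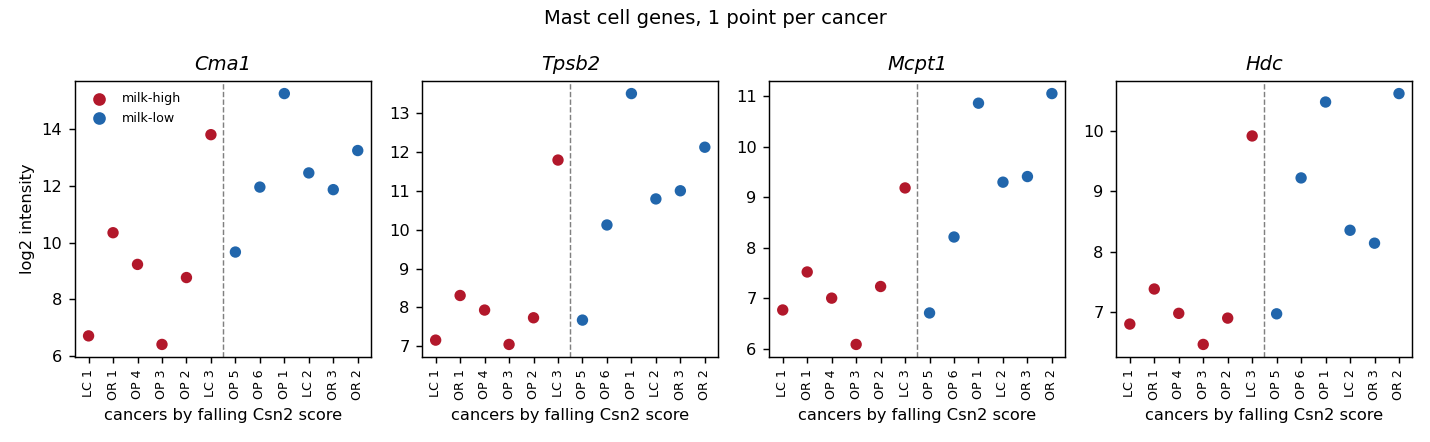
Log2 intensity of 4 mast cell genes (y axes) in the 12 cancers ordered by falling Csn2 score (x axes), red milk-high and blue milk-low. For Cma1 5 milk-high cancers lie between 6.41 and 10.35 and LC 3 lies at 13.81, while the milk-low cancers lie between 9.67 (OP 5) and 15.26.

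The 8 normal tissues, which had no part in making the sets, allowed the same slopes to be measured in other samples. No gene passed there (limma, 0 called, 0%, with 3805 genes at an unadjusted p under 0.05). Of the 16 genes called in cancers, 15 had a positive slope in normal tissue, where 44.5% of all genes did. Probe A_43_P16222, which could be Csn2 itself, is among the 15.

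Among the called genes the slope in normal tissue was 0.95 (SE 0.29) for Glycam1 beside 1.02 in cancers, 0.64 (SE 0.15) for Wap beside 0.69, 0.27 (SE 0.04) for Aqp2 beside 0.27 and 0.18 (SE 0.06) for Fabp3 beside 0.27. Csn1s1, not called in cancers, had 0.47 (SE 0.12) beside 0.49. Single arrays weighed on these values: without LC normal 1 the slope of Glycam1 was 0.61, and without LC normal 2 that of Fabp3 was 0.12. For other genes the slope in normal tissue was near 0: Thrsp at 0.01 (SE 0.06) beside 0.28, Acsl1 at -0.08 (SE 0.06) beside 0.27 and Igf2 at -0.07 (SE 0.07) beside 0.68. On the percentile scale the slopes in normal tissue were 0.11 (SE 0.06) for Thrsp, 0.002 for Acsl1 and -0.01 for Igf2. There Glycam1 had 1.04, Wap 0.73, Csn1s1 0.60, Aqp2 0.33 and Fabp3 0.18. The difference between tissues was not tested. Normal tissue is rich in fat, and Acsl1 stood at 14.34 to 15.72 and Thrsp at 13.53 to 14.92 in all 8, above every cancer. Igf2 was 10.88 to 12.68 there, below every milk-high cancer. The normal arrays were all read on the second scan day, and 87.69% to 97.62% of their probes were well above background. In cancers this share was 61.25% to 79.31%. Both tissues were quantile-normalized together, and the part of these array differences in the levels and slopes was not tested. All 15 luminal genes had a positive slope on Csn2 in normal tissue (median 0.13), and none passed. The mean log2 level of the epithelial keratins Krt8, Krt18 and Krt19 was 12.09 in LC normal 1 and 12.48 in LC normal 3, below the 13.85 to 14.35 of the other 6. With that mean in the fit, the slopes in normal tissue were 0.83 for Glycam1, 0.48 for Wap, 0.32 for Csn1s1, 0.23 for Aqp2 and 0.14 for Fabp3. Other milk genes had lower slopes in that fit: Lalba had 0.10 in place of 0.27, Csn3 0.12 in place of 0.26 and Abcg2 0.13 in place of 0.20.

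Of the mast cell genes in normal tissue, 6 of 10 had a positive slope on Csn2 (median 0.03), and Cma1 had 0.06 (SE 0.09) beside -0.50 in cancers.

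Within single batches and single obesity groups the leading milk genes kept their direction. Glycam1 differed by 7.43 among cancers of the first scan day and 6.50 among those of the second, and by 6.89, 5.25 and 8.86 within slides 1, 4 and 5, the slides with both sets. It differed by 5.53 within OP, 9.18 within OR and 8.74 within LC cancers. For Wap the values were 5.37 and 5.37 on the scan days and 5.13, 6.82 and 2.85 in the obesity groups. For Fabp3 they were 1.63 and 2.49, and 1.56, 3.01 and 2.04. Other milk genes varied more between slides. Within slides 1, 4 and 5 Csn3 was 6.68, 1.74 and -0.39, Lalba 7.32, 2.13 and 0.65, and Csn1s1 7.39, 1.73 and 2.73. Slides 1 and 5 held 1 milk-high cancer each, so slide and single cancer cannot be told apart there. Most of these subsets hold 1 cancer on 1 side, so they are values without a test.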

How the data were processed

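Whole Rat Genome arrays of Agilent, read in 1 colour, measured the total RNA of 20 samples, each on its own array. The files deposited by the authors hold spot and background intensity values, per the file headers, with quality flags of 0 or 1 (other) that they set. Feature Extraction is given as 10.7.3.1 in the submitters' processing notes and as 9.5.1.1 in the file headers. The authors' deposited value table is on a log2 scale, and 20793 of its 20824 rows matched a probe. It was used as an alternative.

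Analyses used R 4.3.3 and limma 3.58.1. The median spot signal was corrected by normexp (offset 50) and 20 arrays were quantile-normalized. Of 41012 probes, the fit dropped 115 with an outlier mark and 825 dim ones, which in no group reached a share of 0.5 of the arrays well above background. The brightest probe of each symbol was kept, or of each accession where no symbol was found. This gave 36042 entries, called genes here, 8661 with a symbol. The same gene may be counted more than once among them. Symbols came from RefSeq accessions (10746 of 11186 matched). Probes without a symbol were tested and not named. Benjamini-Hochberg adjustment ran over the 36042 genes, calls are adjusted p under 0.05, and the number of arrays (10 residual degrees of freedom) limits the precision. The code was tested on simulated data.

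The members, gene lists and tests were chosen with earlier results of these data known. Named genes were drawn from the 12 largest rises and 12 largest falls that passed, with empty places filled by the smallest p in that direction. Members of the milk and prolactin lists, Elf5, Esr1 and Pgr were also eligible. So were 2 to 4 members with the smallest p of every other list, and the 10 symbols with the highest correlation with Csn2. Not every such gene is named, and some lists have no member named. Genes said to be chosen after their values were seen lie outside this rule. Promoter sequences came from RefSeq's table for GRCr8. Alternatives covered scaling, filters, batches, covariates, the replicate block, left-out cancers and the score as a number.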

Additional observations from a re-analysis of the deposited data

Results flagged for a closer look

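In 8 of 119 groups of values examined, the highest or lowest of 6 cancers stood apart from the rest by Dixon's criterion on the gap to the nearest value. About 1 in 20 groups is flagged in this way by chance. Among the milk-low cancers OP 5 stood apart as the highest for Wap (12.46, the next at 8.95), Fabp3 (9.60, the next at 8.42) and Pdzk1ip1 (10.27, the next at 9.05). These genes were called for rising with Csn2 on the same arrays. OP 5 had a Csn2 score of 4.61, and the next milk-low cancer, OP 6, had 0.46. Its place for these genes is therefore no separate finding. Among the milk-high cancers LC 3 stood apart as the highest for the mast cell genes Tpsb2 (11.79, the next at 8.31), Ms4a2 (8.15, the next at 6.84) and Hdc (9.92, the next at 7.38), and as the lowest for Csn3 (13.77, the next at 16.26). OP 2 was the lowest milk-high cancer for St6galnac3 (8.07, the next at 8.81). These 2 cancers, OP 5 and LC 3, are those on either side of the limit.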

How the results depend on the processing

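For the comparison of the sets, 12 of 16 alternatives other than leaving out 1 cancer called 0 genes. With the 75th percentile after normexp it called 11, with OP 5 and LC 3 left out together 15, and with the replicate block 2, all higher in milk-high cancers. Scaling after normexp moved the median of all genes to 0.11. The score as a number gave 16. Leaving out each cancer in turn gave 0 to 8 calls, 0 to 8 of them higher and 0 to 1 lower. With the score as a number, alternatives chosen after seeing the data gave 14 to 21 calls, and 1 with slide as a block or with the replicate block. Those fits have more terms and leave fewer residual degrees of freedom. Leaving out each cancer gave 10 to 30. In normal tissue 1 gene was called with 75th-percentile scaling of the processed signal, and 0 to 1 with 1 tissue left out.

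Over 59 named genes and 28 alternatives, 1633 differences were computed: 19 turned their sign and 30 passed the threshold newly. With no gene called at first, none could lose a call. Turned were Esr1 with 75th-percentile scaling after normexp (0.023), Pgr with slide as a block (0.20), Stat5b with the obesity group (-0.0078) or array weights (-0.031), and Cd36 (-0.0097) and Stat5a (-0.13) in OP cancers alone. Leaving out 1 cancer gave -0.28 to 0.10 for Pgr, -0.077 to 0.15 for Stat5b and -0.21 to 0.40 for Stat5a. The causes were not tested. Deviations of same-numbered cancers correlated at r -0.35 to 0.21 over 9 pairs, 1 over 0.1. So few pairs cannot decide whether the numbers link samples, and the labels do not say. The median gene's 95% interval reached 0.22 to either side.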
